A study of Mus musculus with 18 samples.

Results

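The immediate early response genes described here are 39 genes that cells switch on quickly after a stimulus, read in fibroblasts sorted from mouse skin and mouth. They were taken from a fixed list of names. All 39 of 39 had at least 1 probe set assigned to a single gene symbol, among 18193 such genes on the array, and where a gene had several, the one that was brightest on average over the 18 arrays was used. The genes encode 9 AP-1 and related leucine zipper factors, 4 Egr factors, 3 Nr4a receptors, 6 further transcription factors, 5 phosphatases, 3 Ier proteins, 4 proteins of RNA decay and growth arrest, 3 Gadd45 proteins, and Rhob and Arc.

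Expression was measured on Affymetrix mouse genome arrays, 3 for each of 6 sorted populations, and every mouse carried the R26mTmG reporter, in which Cre turns a cell and its descendants from red to green. ENF (red) and EPF (green) were taken from the dorsal dermis of En1Cre; R26mTmG animals, which the labels put at postnatal day 56. Dorsal and Ventral were green cells from dorsal and ventral dermis of the same line at postnatal day 30. Cranial and Oral were green cells from cranial dermis and oral mucosa of Wnt1Cre; R26mTmG mice at postnatal day 30. No mouse was treated, and all cells were sorted as negative for CD31, CD45, Tie2, Tie119, EpCAM and DAPI. The colour records whether an ancestor of the cell expressed the Cre driver, not whether the cell expresses it now. The protocol text gives 30 days for the back skin of EPF and ENF, against day 56 in their labels, and the sources used here do not settle this. The labels do not say whether the arrays of a group came from separate animals, so p-values measure the spread among these samples only.

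Immediate early genes are transcribed from factors already present in the cell, such as SRF with its ternary complex partners and CREB, and so need no new protein to be switched on. Growth factors, stress, ERK signalling and cyclic AMP are known inducers, and most of the transcripts and proteins are short-lived. The Fos, Jun, Egr, Nr4a and Klf products then regulate a later wave of genes, while Dusp, Zfp36 and Btg products shut the response down. Enzymatic release of cells from tissue and sorting are known to induce many of these genes, and serum does so in cultured fibroblasts.

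Of the 39 genes, 30 had an entry in the RefSeq promoter table (GRCm38.p6), and the 250 bases before the start of transcription were searched on both strands. The palindromic cyclic AMP response element, TGACGTCA, was found in 3 of 30 (Maff, Dusp1 and Btg2), against 1.77% of 27025 genes with an entry. Its 5-base core, TGACG on either strand, which is also part of the full element, was found in 16 of 30, or 53.3%, against 19.8%. The CArG box, which SRF binds, was found in 3 of 30 (Egr2, Dusp5 and Zfp36), against 1.62%. The AP-1 site, TGACTCA or its reverse complement TGAGTCA, was found in 0 of 30, against 5.16%. A match is a description of letters in this window, not a measured binding site. Promoters of 3 genes whose levels fell in 3 steps across the groups, and of Nr4a3, whose levels did not, are printed 5′ to 3′ on the strand of the gene, with the named motif in capitals. Fos and Nr4a3 show the core, Dusp1 the full element and Zfp36 the CArG box.
Fos, chr12:85473640-85473889, plus strand: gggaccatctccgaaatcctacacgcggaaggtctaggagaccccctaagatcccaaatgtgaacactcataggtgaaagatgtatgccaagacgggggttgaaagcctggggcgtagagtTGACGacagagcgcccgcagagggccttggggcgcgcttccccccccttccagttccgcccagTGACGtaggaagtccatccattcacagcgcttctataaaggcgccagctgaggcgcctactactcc
Dusp1, chr17:26508473-26508722, minus strand: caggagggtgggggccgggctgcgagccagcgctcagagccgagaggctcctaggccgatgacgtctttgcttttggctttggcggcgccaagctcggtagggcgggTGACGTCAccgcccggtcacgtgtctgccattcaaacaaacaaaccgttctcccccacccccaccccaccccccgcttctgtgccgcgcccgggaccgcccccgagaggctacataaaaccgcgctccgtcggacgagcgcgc
Zfp36, chr7:28379229-28379478, minus strand: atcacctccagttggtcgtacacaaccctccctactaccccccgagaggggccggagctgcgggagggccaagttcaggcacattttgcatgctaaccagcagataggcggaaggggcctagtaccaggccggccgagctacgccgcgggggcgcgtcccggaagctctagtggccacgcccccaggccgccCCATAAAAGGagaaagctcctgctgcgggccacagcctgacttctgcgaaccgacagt
Nr4a3, chr4:48045055-48045304, plus strand: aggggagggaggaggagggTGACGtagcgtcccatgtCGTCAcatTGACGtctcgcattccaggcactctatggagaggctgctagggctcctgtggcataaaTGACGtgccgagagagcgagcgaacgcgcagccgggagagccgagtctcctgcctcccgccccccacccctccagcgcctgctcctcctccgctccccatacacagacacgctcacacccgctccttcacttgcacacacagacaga
The cores of Fos began 66 and 129 bases before the start, the element of Dusp1 143 bases before it and the CArG box of Zfp36 58 bases before it. Nr4a3 held 4 cores, at 147, 205, 213 and 231 bases.

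All values are log2 expression after robust multichip averaging (RMA), so a difference of 1 is a 2-fold change, and levels of different genes are not compared. The arrays of ENF and EPF stood apart from the 12 arrays of the 4 body sites. General fibroblast markers, 9 genes, averaged 13.20 to 13.29 in ENF, 13.49 to 13.59 in EPF and 11.28 to 12.73 at the sites. Single markers could be lower, such as Lum at 5.65 in Ventral 1. Keratinocyte markers averaged 7.82 to 10.001 in ENF, 5.31 to 8.39 in EPF and 4.98 to 5.42 at the sites. Cell cycle genes averaged 5.94 to 7.04 in EPF, 7.03 to 9.86 in ENF and 8.66 to 10.92 at the sites. Tek, the gene of Tie2, was at 10.46 ± 0.49 in ENF and 10.20 ± 0.71 in EPF (SD, n = 3) despite the sort against Tie2, while Pecam1, the gene of CD31, was at 4.09 ± 0.19 and 3.90 ± 0.07. The 3′ minus 5′ signal of the Gapdh control, a measure of RNA integrity and labelling, was 3.41 to 4.02 in ENF and EPF and 2.27 to 2.89 at the sites, while that of the Actb control did not part them (2.27 to 3.20 and 1.89 to 3.17). The 18S control read 12.92 to 13.46 and 11.82 to 12.50 in the same order. The Gapdh and 18S values and the fibroblast means part all ENF and EPF arrays from all site arrays. So do Tek (9.45 to 10.84 against 3.61 to 4.40) and the mural marker Rgs5 (7.94 to 12.24 against 5.20 to 6.15). Means of 10 heat shock genes do so too (12.86 to 13.22 against 10.62 to 11.39). Keratinocyte markers do so for ENF and cell cycle genes for EPF. The part of all these signals in the results was not tested. In sorted populations, fewer cells of a type and less RNA per cell cannot be told apart. The largest gene level on an array was between 14.49 and 14.70, and 7 of the 39 genes had a mean in ENF or EPF within 1 of the smaller value (Fos, Jun, Egr1, Klf4, Cebpd, Dusp1 and Zfp36), where differences can be understated.

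Across the 18 arrays, 12 of the 39 genes formed 3 tiers without overlap, highest in ENF and EPF, then Cranial and Oral, then Dorsal and Ventral. In 18 genes, among them Fos, Fosb, Jun, Atf3, Klf2, Dusp1 and Zfp36, all 6 ENF and EPF arrays lay above all 12 site arrays, a pattern found in 8.64% of all genes. The reverse held for 3 genes, Fosl1, Dusp4 and Gadd45a, against 5.05% of all genes. Among the site arrays, 17 genes had all Cranial and Oral arrays above all Dorsal and Ventral arrays (9.58% of all genes), and only Gadd45b of the 39 had them all below (6.1% of all genes). The 12 genes with both steps were Fos, Jun, Junb, Jund, Atf3, Egr1, Klf2, Myc, Dusp1, Ier2, Zfp36 and Btg2, against 1.05% of all genes. These patterns were read from the arrays. Labelled age and the Gapdh and 18S control signals part ENF and EPF from the sites in the same way. The fibroblast and heat shock means, Tek and Rgs5 do so too.

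**Figure D1:**
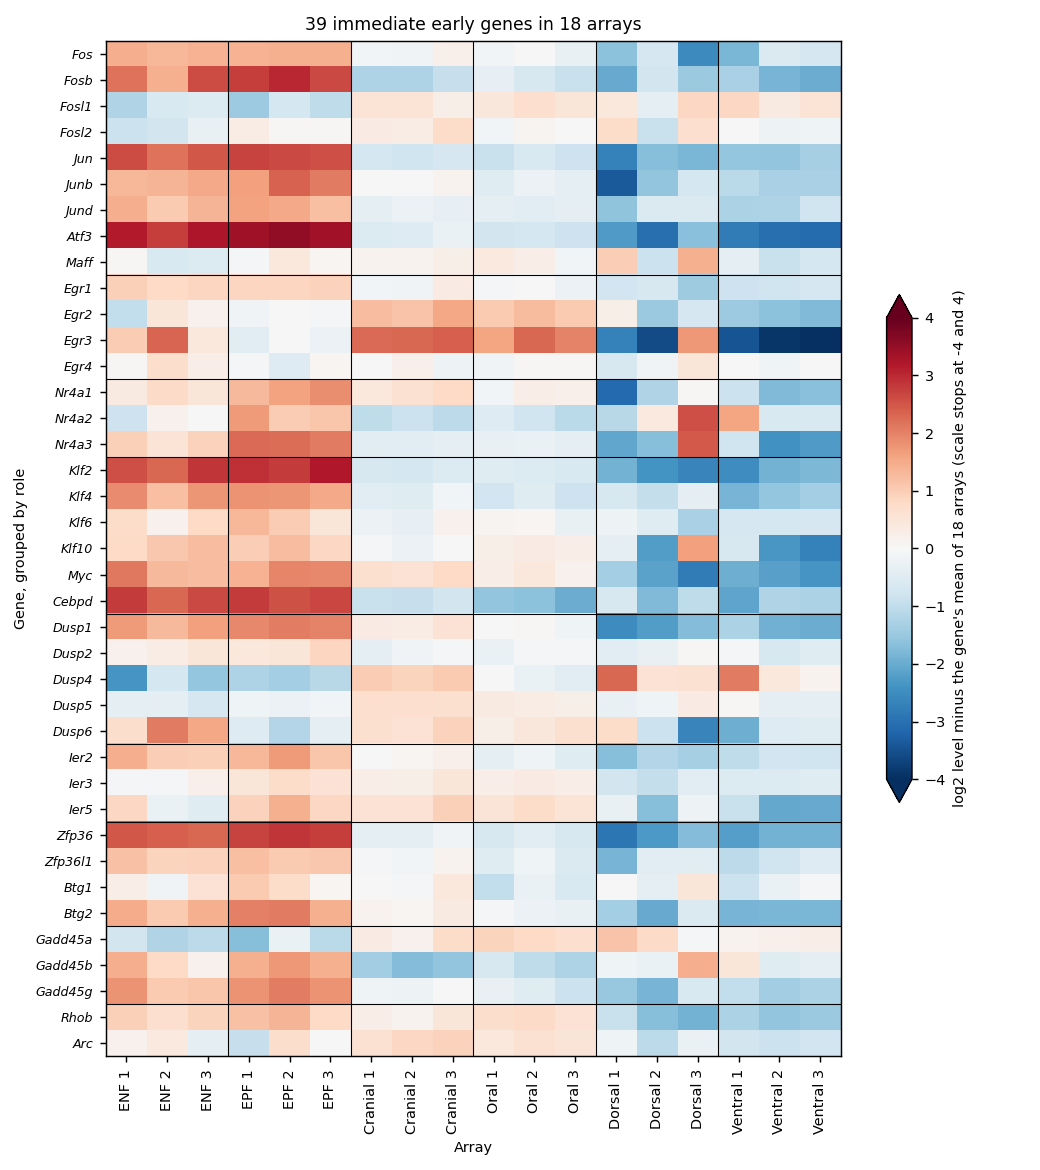
Log2 level of each of 39 immediate early genes (rows, grouped by role) in each of 18 arrays (columns, grouped by population), minus the gene's mean over the 18 arrays; the colour scale stops at -4 and 4. Red cells gather in the 6 ENF and EPF columns and blue cells in the Dorsal and Ventral columns, with 12 genes in 3 tiers without overlap, while Dorsal 3 departs from Dorsal 1 and Dorsal 2 in Egr3, Nr4a2, Nr4a3 and Klf10.

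The comparison of EPF with ENF asked how the Engrailed lineage of the back differs from its neighbours. Only Nr4a3 of the 39 genes rose, and 0 fell, at a limma adjusted p under 0.05, against 0.275% of all genes higher and 0.033% lower. The median difference was 0.29 over the 39 genes and 2.12e-04 over all genes, and 32 of the 39 were above 0, as were 50.04% of all genes. At an unadjusted p under 0.05 the limma fit gave 13 of the 39 genes and 1967 of all genes. Markers of other cells moved in the same comparison. Of 8 mural and smooth muscle markers, 4 were higher in EPF (Acta2, Myh11, Actg2 and Cnn1, by 1.67 to 2.65), and their mean over the 8 was 8.71 to 8.86 in the EPF arrays and 7.07 to 7.21 in the ENF arrays. Of 8 skeletal muscle markers, 2 were lower in EPF, Myf5 (-4.97 ± 0.43) and Acta1 (-2.35 ± 0.18), with list means of 4.41 to 4.69 in EPF and 5.47 to 6.23 in ENF. Of 10 keratinocyte markers Trp63 was lower in EPF (-4.13 ± 0.35). The part of these cells in the differences of the 39 genes was not tested.

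Between body sites of one lineage no immediate early gene passed the test. For Oral against Cranial, 0 of 39 were higher and 0 lower, against 0.407% and 0.731% of all genes, and at an unadjusted p under 0.05 limma gave 4 of the 39 and 1507 of all genes. The 4 sites share 1 estimate of spread in this fit, and Dorsal was the widest group. When limma was fitted on the 6 Oral and Cranial arrays alone, 15 of the 39 were called, 4 higher and 11 lower in Oral, against 9.87% of all genes in either direction. For Ventral against Dorsal, 0 of 39 were higher and 0 lower, against 0.0055% and 0.022%, and limma gave 8 of the 39 and 1555 of all genes at an unadjusted p under 0.05. Without Dorsal 2 the count was 5 of the 39, all lower in Ventral, beside 161 of all genes in either direction. With Dorsal 2 kept, 5 of all genes were called.

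Between the Wnt1 lineage of the head and the En1 lineage of the trunk, 16 to 20 of the 39 genes rose in the head groups. Cranial against Dorsal gave 20 higher and 1 lower, against 11.2% and 7.45% of all genes, with a median difference of 0.97 over the 39 and -0.06 over all genes. Cranial against Ventral gave 20 higher and 1 lower, against 11.7% and 6.2%, with medians of 0.96 and -0.06. Oral against Dorsal gave 16 higher and 0 lower, against 10.5% and 6.3%, with medians of 0.80 and -0.02. Oral against Ventral gave 16 higher and 0 lower, against 10.3% and 4.31%, with medians of 0.84 and -0.02. These 4 comparisons share arrays, so they are not separate evidence, and Cre line and body site change together in all of them. A test for any difference among the 4 sites (the limma F test) called 22 of the 39, against 21.1% of all genes. Fits on only the 6 arrays of both groups gave 11 for Cranial against Dorsal and 9 for Oral against Dorsal. They gave 29 for Oral against Ventral and 32 for Cranial against Ventral. Over all genes these fits called 1242, 1065, 4925 and 6684 in the same order. The fit on all sites called 3393, 3065, 2665 and 3251 of all genes.

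EPF and Dorsal are labelled alike in Cre line, colour and skin, and differ in labelled age. The control and marker signals that part the same arrays cannot be told apart from labelled age. In EPF, 23 of the 39 genes were higher and 2 were lower than in Dorsal, against 10.9% and 5.94% of all genes. The median difference was 1.83 over the 39 and 0.01 over all genes. Of the 39, 29 differed by at least 2-fold, a count that was not taken over all genes. Leaving out 1 array at a time gave 18 to 29 called genes of the 39, beside 1474 to 4061 of all genes.

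**Figure D2:**
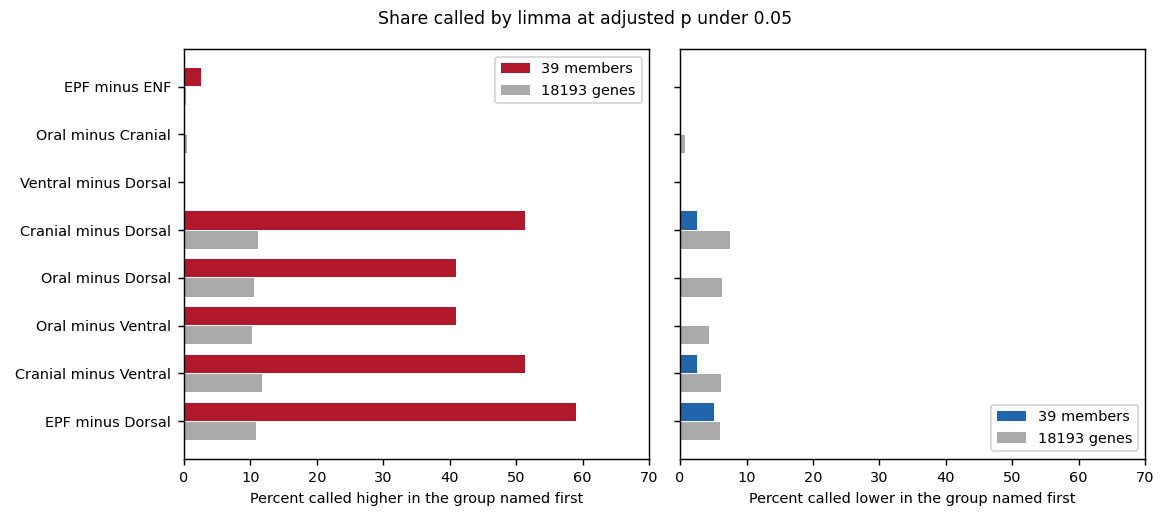
Percent of the 39 immediate early genes (coloured bars) and of all 18193 genes (grey bars) called by limma at an adjusted p under 0.05, higher (left) or lower (right) in the group named first, for 8 comparisons. The 20 of 39 genes higher in Cranial than in Dorsal and the 23 of 39 higher in EPF than in Dorsal stand beside 11.2% and 10.9% of all genes.

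Of the AP-1 and related factors, which bind DNA as pairs through leucine zippers, 6 of 9 were higher and 1 lower in EPF than in Dorsal, and 4 of 9 were higher in Cranial than in Dorsal. Values of arrays are given in the order of their replicate numbers. Fos, the partner of Jun in the classic AP-1 dimer, read 14.24, 14.10 and 14.17 in the ENF arrays and 14.17, 14.18 and 14.19 in the EPF arrays. Cranial arrays held Fos at 12.68, 12.65 and 12.96 and Oral arrays at 12.66, 12.75 and 12.49. Dorsal arrays held it at 11.13, 12.10 and 10.22 and Ventral arrays at 10.94, 12.19 and 12.11. No array of a lower tier reached one of a higher tier, and Dorsal 3 and Ventral 1 were the lowest of their groups. Fos was higher in EPF than in Dorsal by 3.04 ± 0.44 (SE, n = 3 per group, limma adjusted p = 0.0056) and in Cranial than in Dorsal by 1.62 ± 0.43 (limma adjusted p = 0.0244). Without any 1 of the 3 Cranial arrays, or without Dorsal 3, the limma adjusted p for Cranial against Dorsal was 0.0504 to 0.0866 at differences of 1.15 to 1.67. Against Ventral, Fos was not called in Cranial (1.02 ± 0.43) or Oral (0.89 ± 0.43).

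Fosb, a second Fos family member, read 10.79, 10.02 and 11.21 in ENF and 11.39, 11.62 and 11.24 in EPF. Cranial arrays held Fosb at 7.38, 7.39 and 7.68 and Oral arrays at 8.30, 7.96 and 7.72. Fosb levels were 6.59, 7.88 and 7.14 in Dorsal and 7.31, 6.75 and 6.62 in Ventral. The Dorsal arrays overlapped with each other site, while the Cranial, Oral and Ventral arrays did not overlap with one another. All site arrays lay below ENF and EPF. Fosb was 18.6-fold higher in EPF than in Dorsal (log2 difference 4.21 ± 0.33, limma adjusted p = 0.000583), and among the sites it was called only for Oral against Ventral (1.10 ± 0.30, limma adjusted p = 0.0318). That call was lost without Oral 1, Oral 2, Ventral 2 or Ventral 3, at differences of 0.94 to 1.11 and limma adjusted p of 0.0892 to 0.117.

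Jun, the central AP-1 subunit, read 13.55, 13.12 and 13.42 in ENF and 13.64, 13.59 and 13.52 in EPF. Cranial arrays held Jun at 10.22, 10.15 and 10.27, and Oral arrays at 10.05, 10.32 and 10.12. Jun levels were 8.25, 9.25 and 9.10 in Dorsal and 9.40, 9.36 and 9.60 in Ventral. The gap between EPF and Cranial was larger than the one between Cranial and either trunk group, and no 2 tiers overlapped. Jun was 26.3-fold higher in EPF than in Dorsal (log2 difference 4.72 ± 0.28, limma adjusted p = 0.000208), and its second probe set differed by 3.87. In Cranial it was higher than in Dorsal by 1.35 ± 0.22 (limma adjusted p = 0.0021), with 1.02 at the second probe set.

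Junb, a Jun relative that can restrain Jun, read 11.005, 11.03 and 11.20 in ENF and 11.31, 12.04 and 11.76 in EPF. Cranial arrays held Junb at 9.70, 9.64 and 9.80 and Oral arrays at 9.17, 9.43 and 9.32. The Dorsal arrays spread over 6.30, 8.11 and 8.96, and the Ventral arrays read 8.60, 8.37 and 8.36. Dorsal 1 was far below the other Dorsal arrays. Junb was higher in EPF than in Dorsal by 3.91 ± 0.64 (limma adjusted p = 0.009) and in Cranial than in Dorsal by 1.92 ± 0.49 (limma adjusted p = 0.0211). The second of these calls was lost without any 1 of the 3 Cranial arrays, at limma adjusted p of 0.0576 to 0.0697.

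Atf3, a stress-induced factor that often represses its targets, showed the largest rise of the 39 genes in EPF over Dorsal. Its levels were 12.83, 12.43 and 12.89 in ENF and 13.06, 13.21 and 13.03 in EPF. Cranial arrays held Atf3 at 9.12, 9.17 and 9.42 and Oral arrays at 8.93, 8.96 and 8.86. Atf3 levels were 7.40, 6.66 and 7.999 in Dorsal and 6.89, 6.65 and 6.60 in Ventral. All 3 tiers were apart. The rise in EPF over Dorsal was 53.7-fold (log2 difference 5.75 ± 0.33, limma adjusted p = 0.000204). Among the sites it was largest for Cranial over Ventral, at 2.53 ± 0.26 (limma adjusted p = 0.000167), and Oral exceeded Ventral by 2.20 ± 0.26 (limma adjusted p = 0.000345).

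Fosl1, a Fos relative that is itself a target of AP-1, ran the other way. ENF arrays held Fosl1 at 5.80, 6.39 and 6.47 and EPF arrays at 5.55, 6.30 and 6.002. Cranial arrays held Fosl1 at 7.55, 7.56 and 7.23 and Oral arrays at 7.47, 7.67 and 7.48. Fosl1 levels were 7.43, 6.65 and 7.82 in Dorsal and 7.84, 7.36 and 7.56 in Ventral. All 6 ENF and EPF arrays were below all 12 site arrays. In EPF it was lower than in Dorsal by a log2 difference of -1.35 ± 0.34 (limma adjusted p = 0.041). Leaving out any 1 EPF array, Dorsal 1 or Dorsal 3 ended the call, at differences of -1.52 to -1.09 and limma adjusted p of 0.0629 to 0.136. Jund, the Jun relative with the steadiest expression, was higher in EPF than in Dorsal by 2.37 ± 0.31 (limma adjusted p = 0.004), while its dim second probe set differed by -0.17. Fosl2 and Maff, a small Maf factor, were not called in any comparison, with EPF minus Dorsal at -0.05 ± 0.44 and -0.38 ± 0.57. The dimmer Fosl2 probe set was higher in EPF than in Dorsal by 1.30 (limma adjusted p = 0.02 over all probe sets), so its probe sets disagree.

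**Figure D3:**
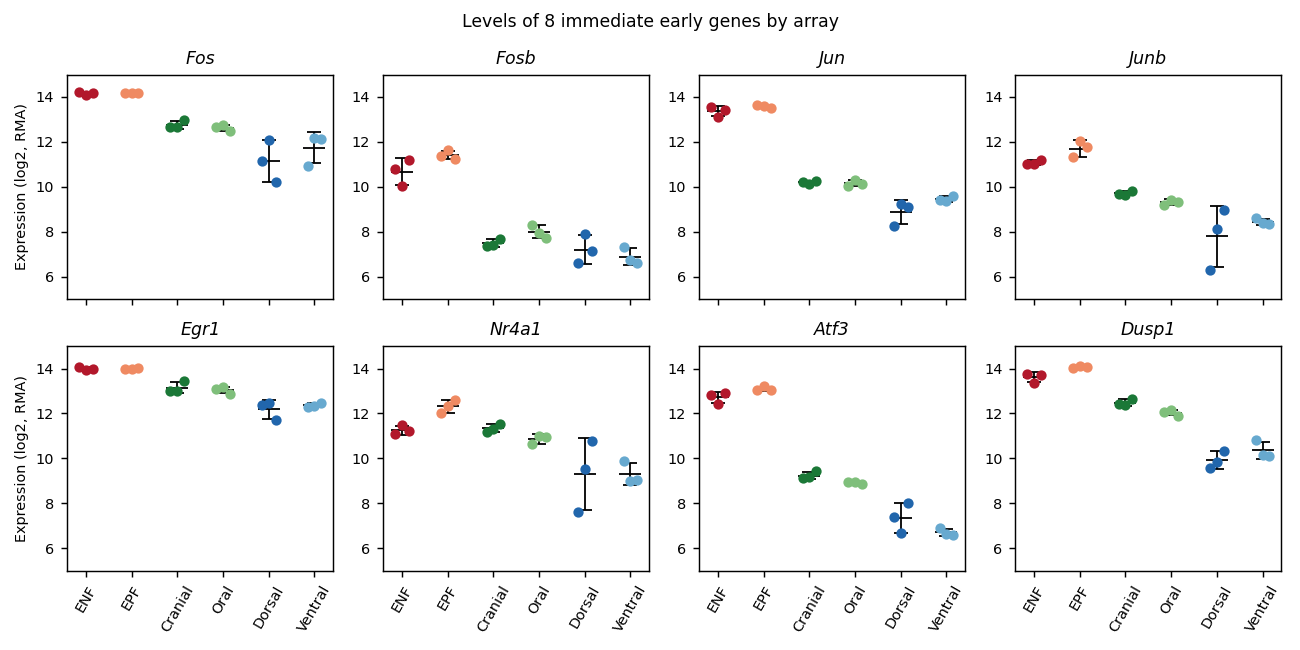
Log2 expression of 8 immediate early genes in each array (points), with the mean and SD of the 3 arrays of each population (black), on a common axis from 5 to 15. Fos, Jun, Junb, Egr1, Atf3 and Dusp1 fall in 3 steps without overlap from ENF and EPF to Cranial and Oral to Dorsal and Ventral. Fosb in Dorsal overlaps with the other sites, and Nr4a1 is level between ENF and Cranial.

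The Egr zinc finger factors, which relay growth signals through SRF-driven transcription, rose in the head groups for 3 of 4 members in each of the 4 head against trunk comparisons. Egr1 read 14.07, 13.93 and 13.99 in ENF and 13.995, 13.99 and 14.05 in EPF. Cranial arrays held Egr1 at 13.02, 13.002 and 13.45 and Oral arrays at 13.09, 13.16 and 12.88. Egr1 levels were 12.36, 12.47 and 11.71 in Dorsal and 12.29, 12.34 and 12.47 in Ventral. The tiers did not overlap, and ENF and EPF, both near the top of the range, overlapped. Egr1 was higher in EPF than in Dorsal by 1.83 ± 0.22 (limma adjusted p = 0.003) and in Cranial than in Dorsal by 0.97 ± 0.20 (limma adjusted p = 0.0069). Against Ventral its rise was 0.79 ± 0.20 in Cranial (limma adjusted p = 0.0192), a call lost without Cranial 3, Ventral 1 or Ventral 2 (0.65 to 0.78, limma adjusted p of 0.0565 to 0.0864). In Oral over Ventral it was 0.68 ± 0.20 (limma adjusted p = 0.0404), lost without any 1 of the 6 arrays (0.62 to 0.76, limma adjusted p of 0.062 to 0.138), and in Oral over Dorsal 0.86 ± 0.20 (limma adjusted p = 0.0124), lost without Oral 2 (0.81, limma adjusted p = 0.0546).

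Egr2 was highest in the head groups rather than in EPF. ENF arrays held Egr2 at 8.94, 10.40 and 10.09 and EPF arrays at 9.78, 9.92 and 9.88. Cranial arrays held Egr2 at 11.15, 11.05 and 11.46 and Oral arrays at 10.97, 11.19 and 10.95. Egr2 levels were 10.16, 8.43 and 9.25 in Dorsal and 8.45, 8.27 and 8.16 in Ventral. Cranial and Oral lay above all other arrays, and the ENF and EPF arrays overlapped with Dorsal. Cranial exceeded Ventral by 2.93 ± 0.33 (limma adjusted p = 0.000292) and Dorsal by 1.94 ± 0.33 (limma adjusted p = 0.003). Oral exceeded Ventral by 2.74 ± 0.33 (limma adjusted p = 0.000384).

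Egr3 gave the largest differences of the 39 genes between head and trunk, and they rest on its brighter probe set. ENF arrays held Egr3 at 8.76, 10.05 and 8.15 and EPF arrays at 7.32, 7.71 and 7.50. Cranial arrays held Egr3 at 9.999, 10.04 and 10.12 and Oral arrays at 9.33, 10.02 and 9.73. The Dorsal arrays read 5.04, 4.16 and 9.47 and the Ventral arrays 4.27, 3.84 and 3.72. Dorsal 3 lay within the head range, while Dorsal 1, Dorsal 2 and all Ventral arrays were low. The Ventral mean of 3.94 is at the lower quartile of the arrays (3.93 to 4.10), so differences from it can be understated at this probe set. Cranial exceeded Ventral by 6.11 ± 1.01 (limma adjusted p = 0.0025) and Oral exceeded Ventral by 5.75 ± 1.01 (limma adjusted p = 0.0037). Against Dorsal, Cranial was higher by 3.83 ± 1.01 (limma adjusted p = 0.0248), a call lost without any 1 Cranial array or without Dorsal 2 (2.80 to 3.86, limma adjusted p of 0.069 to 0.0763). Oral was higher than Dorsal by 3.47 ± 1.01 (limma adjusted p = 0.0389), lost without any 1 Oral array, Dorsal 1 or Dorsal 2 (2.44 to 3.65, limma adjusted p of 0.0616 to 0.119). The second Egr3 probe set differed by 0.07 for Cranial against Dorsal and by -0.13 for Cranial against Ventral, so the probe sets disagree. In Ventral against Dorsal, Egr3 had the largest difference of the 39 and was not called (-2.28 ± 1.01). Egr4 was not called in any comparison, with group means from 5.35 to 5.86.

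The Nr4a receptors are orphan nuclear receptors whose activity is set mainly by their amount. Nr4a1 read 11.09, 11.48 and 11.21 in ENF and 12.02, 12.33 and 12.59 in EPF. Cranial arrays held Nr4a1 at 11.16, 11.33 and 11.54 and Oral arrays at 10.62, 11.01 and 10.95. The Dorsal arrays ran from 7.62 to 10.78 (7.62, 9.51 and 10.78), and Ventral read 9.87, 8.97 and 9.04. EPF was above ENF in all arrays, and Dorsal 3 overlapped with Oral. The difference of EPF from ENF was 1.05 ± 0.20 and was not called (limma adjusted p = 0.101). Nr4a1 was higher in EPF than in Dorsal by 3.005 ± 0.73 (limma adjusted p = 0.0359) and in Cranial than in Dorsal by 2.04 ± 0.60 (limma adjusted p = 0.038). Each of these calls was lost without any 1 array of the first group or without Dorsal 2, at 2.87 to 3.15 for EPF (limma adjusted p of 0.0892 to 0.13) and 1.94 to 2.14 for Cranial (limma adjusted p of 0.0636 to 0.115).

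Nr4a3 was the 1 gene of the 39 called between EPF and ENF. Its levels were 9.09, 8.67 and 9.04 in ENF and 10.40, 10.35 and 10.20 in EPF. Cranial arrays held Nr4a3 at 7.71, 7.68 and 7.75 and Oral arrays at 7.82, 7.87 and 7.73. Nr4a3 levels were 6.05, 6.41 and 10.60 in Dorsal and 7.33, 5.72 and 5.85 in Ventral. The EPF arrays lay above every other array except Dorsal 3, which was the highest of all 18. EPF exceeded ENF by 1.38 ± 0.17, or 2.61-fold (limma adjusted p = 0.0297). The call was lost without any 1 of the 3 EPF arrays (1.34 to 1.44, limma adjusted p of 0.0995 to 0.181) and with all 18 arrays in the fit (limma adjusted p = 0.446), and 2 other Nr4a3 probe sets differed by -0.0025 and -0.10. Nr4a2 was not called in any comparison. It was at 9.02 ± 0.37 in EPF, 7.54 ± 0.54 in ENF and 8.37 ± 1.86 in Dorsal (SD, n = 3), with EPF minus ENF at 1.48 ± 0.30 (limma adjusted p = 0.127).

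Of the Klf factors, Myc and Cebpd, 5 of 6 were higher in EPF than in Dorsal. Klf2, a Kruppel-like factor best known from endothelium, read 11.82, 11.54 and 12.10 in ENF and 12.16, 12.05 and 12.44 in EPF. Cranial arrays held Klf2 at 8.61, 8.53 and 8.69 and Oral arrays at 8.76, 8.70 and 8.65. Klf2 levels were 7.35, 6.84 and 6.59 in Dorsal and 6.76, 7.34 and 7.43 in Ventral. The tiers were apart, and the gap between EPF and Cranial was the wider. Klf2 was 39.2-fold higher in EPF than in Dorsal (log2 difference 5.29 ± 0.23, limma adjusted p = 9.41e-05) and higher in Oral than in Dorsal by 1.78 ± 0.21 (limma adjusted p = 0.000275). Of 8 endothelial markers, 3 to 4 were at or below the lower quartile in ENF and EPF while Tek was high there. Kdr was at 8.87 ± 1.27 in ENF and 8.38 ± 1.35 in EPF (SD, n = 3), with means of 6.55 to 7.28 at the sites. Vwf reached 6.43 in ENF 3 and 5.96 in EPF 3 and was lower in the other arrays of both groups.

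Myc, a growth regulator, was called in all 4 head against trunk comparisons under every alternative that was run. So were Atf3, Klf2, Dusp1, Ier3, Zfp36 and Rhob. ENF arrays held Myc at 10.79, 9.98 and 9.92 and EPF arrays at 10.07, 10.64 and 10.60. Cranial arrays held Myc at 9.32, 9.25 and 9.48 and Oral arrays at 8.96, 9.10 and 8.87. Myc levels were 7.32, 6.53 and 5.89 in Dorsal and 6.73, 6.52 and 6.33 in Ventral. No tiers overlapped. Cranial exceeded Dorsal by 2.78 ± 0.28 (limma adjusted p = 0.000162) and Ventral by 2.82 ± 0.28 (limma adjusted p = 0.00013). Oral exceeded Dorsal by 2.40 ± 0.28 and Ventral by 2.45 ± 0.28 (limma adjusted p = 0.000283 and 0.000281).

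Cebpd, a C/EBP factor of the acute phase response, separated ENF and EPF from the sites without a step between head and trunk. ENF arrays held Cebpd at 13.996, 13.51 and 13.85 and EPF arrays at 13.98, 13.75 and 13.86. Cranial arrays held Cebpd at 10.31, 10.29 and 10.45 and Oral arrays at 9.61, 9.55 and 9.22. Cebpd levels were 10.56, 9.44 and 10.18 in Dorsal and 9.10, 9.98 and 9.93 in Ventral. The Dorsal arrays overlapped with both head groups. EPF exceeded Dorsal by 3.80 ± 0.29 (limma adjusted p = 0.000532). Oral minus Cranial was -0.89 ± 0.29, one of the largest of the 39 there, and was not called.

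Klf10, a TGF-beta inducible repressor, read 8.85, 9.14 and 9.30 in ENF and 9.06, 9.29 and 8.91 in EPF. Cranial arrays held Klf10 at 8.02, 7.85 and 8.06 and Oral arrays at 8.29, 8.40 and 8.33. Klf10 levels were 7.67, 5.84 and 9.70 in Dorsal and 7.42, 5.76 and 5.35 in Ventral. Dorsal 3 and Dorsal 2 were the highest and lowest of their group and lay on either side of the head arrays. Ventral minus Dorsal was -1.56 ± 0.78 and was not called. Klf4, a barrier and pluripotency factor, was higher in EPF than in Dorsal by 2.37 ± 0.19 (limma adjusted p = 0.000672) and in Cranial than in Ventral by 1.25 ± 0.18 (limma adjusted p = 0.0011), and Cranial minus Dorsal was 0.32 ± 0.18 and not called. Klf6 was higher in EPF than in Dorsal by 1.60 ± 0.34 (limma adjusted p = 0.0224), a call lost without EPF 1, EPF 2 or Dorsal 2 (1.41 to 1.68, limma adjusted p of 0.0576 to 0.0858).

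**Figure D4:**
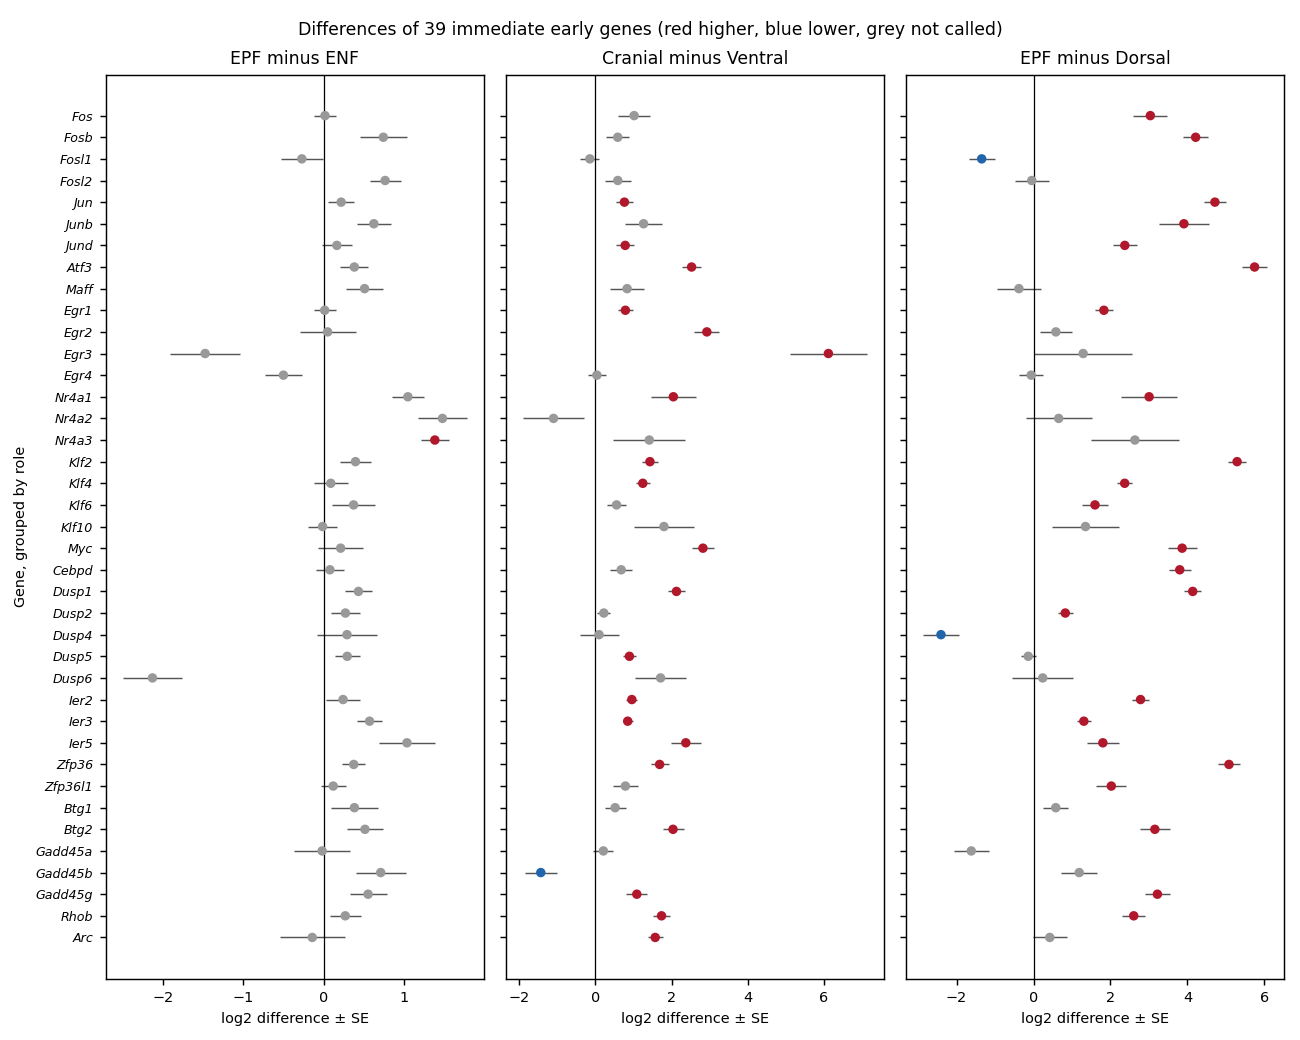
Log2 difference ± SE (limma, 3 arrays per group) of each of 39 immediate early genes for EPF minus ENF, Cranial minus Ventral and EPF minus Dorsal; red points were called higher, blue points lower and grey points were not called, and the horizontal scales differ. In the left panel only Nr4a3 was called, in the middle panel 20 genes were higher and 1 lower, and in the right panel 23 were higher and 2 lower.

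The dual specificity phosphatases switch off MAP kinases and differ in where they act. Dusp1, the nuclear immediate early phosphatase, read 13.77, 13.37 and 13.73 in ENF and 14.01, 14.11 and 14.05 in EPF. Cranial arrays held Dusp1 at 12.41, 12.36 and 12.66 and Oral arrays at 12.07, 12.14 and 11.91. Dusp1 levels were 9.56, 9.85 and 10.35 in Dorsal and 10.81, 10.15 and 10.09 in Ventral. The 3 tiers were apart by more than the SD within any group. Dusp1 was 17.6-fold higher in EPF than in Dorsal (log2 difference 4.14 ± 0.22, limma adjusted p = 0.000166). In Cranial it exceeded Dorsal by 2.56 ± 0.22 (limma adjusted p = 6.79e-05) and Ventral by 2.13 ± 0.22 (limma adjusted p = 0.000197). Oral exceeded Dorsal by 2.12 ± 0.22 (limma adjusted p = 0.000163).

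Dusp4, an inducible nuclear phosphatase, ran against Dusp1. ENF arrays held Dusp4 at 3.99, 5.65 and 4.81 and EPF arrays at 5.11, 4.98 and 5.23. Cranial arrays held Dusp4 at 7.38, 7.24 and 7.38 and Oral arrays at 6.32, 6.10 and 5.89. Dusp4 levels were 8.64, 6.93 and 6.97 in Dorsal and 8.41, 6.78 and 6.50 in Ventral. Every ENF and EPF array was below every site array, and Dorsal 1 and Ventral 1 were the highest. EPF minus Dorsal was -2.41 ± 0.46 (limma adjusted p = 0.0154), a call lost without any 1 EPF array (-2.47 to -2.34, limma adjusted p of 0.0612 to 0.0663). Oral minus Cranial was -1.23 ± 0.51, the largest difference of the 39 in that comparison, and was not called (limma adjusted p = 0.523).

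Dusp5, a nuclear ERK phosphatase, was higher in Cranial than in Ventral by 0.89 ± 0.17 (limma adjusted p = 0.0049). Dusp6, the cytoplasmic ERK phosphatase and a reporter of ERK activity, was not called in any comparison, though EPF minus ENF was -2.13 ± 0.37 (limma adjusted p = 0.0765), the largest of the 39 there. Its levels were 9.18, 10.57 and 10.01 in ENF, 7.97, 7.30 and 8.10 in EPF and 9.21, 7.61 and 5.83 in Dorsal, where the 3 arrays overlapped with both of the former. Dusp2, best known from immune cells, was dim, at 5.76 ± 0.22 in EPF and 4.93 ± 0.25 in Dorsal (SD, n = 3), and was higher in EPF by 0.83 ± 0.20 (limma adjusted p = 0.0339). That call was lost without any 1 EPF array or without Dorsal 2 (0.70 to 0.91, limma adjusted p of 0.0729 to 0.122).

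All 3 Ier genes rose in all 4 head against trunk comparisons and in EPF over Dorsal. Leaving out 1 array ended the calls of Ier5 against Dorsal, without any 1 Cranial array or Dorsal 2 (0.98 to 1.52, limma adjusted p of 0.053 to 0.0945), any 1 Oral array or Dorsal 2 (0.86 to 1.38, limma adjusted p of 0.0815 to 0.116) and each EPF array (1.62 to 1.91, limma adjusted p of 0.0894 to 0.115). The call of Ier2 for Oral over Ventral was lost without Oral 1, Oral 2 or any 1 Ventral array (0.43 to 0.57, limma adjusted p of 0.0692 to 0.151). Ier5, an immediate early protein tied to the heat shock response, read 11.27, 10.18 and 9.95 in ENF and 11.36, 11.86 and 11.28 in EPF. Cranial arrays held Ier5 at 11.04, 11.03 and 11.41 and Oral arrays at 10.97, 11.16 and 11.002. Ier5 levels were 10.13, 8.74 and 10.23 in Dorsal and 9.54, 8.39 and 8.42 in Ventral. The head arrays were above all trunk arrays, and the ENF arrays overlapped with both. Cranial exceeded Ventral by 2.37 ± 0.39 (limma adjusted p = 0.0024) and Oral exceeded Ventral by 2.26 ± 0.39 (limma adjusted p = 0.0032), while 1 of its 2 other probe sets differed by -0.24 and -0.28 in these comparisons. Ier2, a nuclear protein, was at 12.62 ± 0.30 in EPF, 11.34 ± 0.11 in Cranial, 10.90 ± 0.16 in Oral, 10.38 ± 0.13 in Ventral and 9.84 ± 0.27 in Dorsal (SD, n = 3). Its rise in Cranial over Dorsal was 1.50 ± 0.15 (limma adjusted p = 0.00014). Ier3, which protects cells from apoptosis, had nearly level means of 12.16 ± 0.16 in ENF, 12.46 ± 0.14 in Cranial and 12.42 ± 0.03 in Oral, and was lower in Dorsal at 11.42 ± 0.25, a difference from Cranial of 1.04 ± 0.13 (limma adjusted p = 0.000525).

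Zfp36, or tristetraprolin, binds AU-rich elements and sends short-lived transcripts to decay. ENF arrays held Zfp36 at 13.65, 13.55 and 13.45 and EPF arrays at 13.86, 13.997 and 13.91. Cranial arrays held Zfp36 at 10.77, 10.78 and 11.004 and Oral arrays at 10.50, 10.74 and 10.52. Zfp36 levels were 8.25, 8.85 and 9.42 in Dorsal and 8.96, 9.26 and 9.27 in Ventral. All tiers were apart, with the wider gap above Cranial. Zfp36 was 33.8-fold higher in EPF than in Dorsal (log2 difference 5.08 ± 0.29, limma adjusted p = 0.000204) and higher in Cranial than in Dorsal by 2.01 ± 0.24 (limma adjusted p = 0.000395). Its relative Zfp36l1 was higher in EPF than in Dorsal by 2.02 ± 0.39 (limma adjusted p = 0.0159), a call lost without any 1 EPF array (1.98 to 2.05, limma adjusted p of 0.0615 to 0.0671), and was not called among the sites. Btg2, an antiproliferative protein, was higher in EPF than in Dorsal by 3.15 ± 0.38 (limma adjusted p = 0.0029) and in Cranial than in Ventral by 2.04 ± 0.28 (limma adjusted p = 0.000782), with 1.07 and 0.51 at its second probe set, neither called. Btg2 was also called for Cranial and Oral against Dorsal (1.52 and 1.12), where the second probe set went the other way. With the mean of its probe sets these differences were 0.64 and 0.23 and were not called (limma adjusted p = 0.103 and 0.589). The call for Oral was also lost without Oral 1 or Oral 2. Its relative Btg1 was not called in any comparison, with group means from 11.09 to 12.33.

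The Gadd45 proteins respond to stress and DNA damage, and the 3 genes did not move alike. Gadd45b, a target of NF-kB and TGF-beta, was the 1 gene of the 39 that fell in Cranial against the trunk groups. ENF arrays held Gadd45b at 12.17, 11.50 and 10.87 and EPF arrays at 12.12, 12.43 and 12.12. Cranial arrays held Gadd45b at 9.30, 8.98 and 9.14 and Oral arrays at 10.05, 9.70 and 9.48. Gadd45b levels were 10.52, 10.43 and 12.16 in Dorsal and 11.19, 10.22 and 10.31 in Ventral. All head arrays were below all trunk arrays, and Dorsal 3 reached the EPF level. Cranial minus Dorsal was -1.90 ± 0.41 (limma adjusted p = 0.0108) and Cranial minus Ventral -1.43 ± 0.41 (limma adjusted p = 0.0367). The second call was lost without any 1 of the 6 arrays, at -1.61 to -1.12 and limma adjusted p of 0.0567 to 0.121. Gadd45g was higher in EPF than in Dorsal by 3.22 ± 0.32 (limma adjusted p = 0.0015) and in Cranial than in Dorsal by 1.22 ± 0.27 (limma adjusted p = 0.0118). Gadd45a, a p53 target, was at 7.16 ± 0.25 in ENF and 7.14 ± 0.73 in EPF and between 8.35 and 8.94 at the sites, and EPF minus Dorsal was -1.62 ± 0.45 and not called (limma adjusted p = 0.054).

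Rhob, a short-lived small GTPase of endosomes, read 11.21, 10.93 and 11.13 in ENF and 11.42, 11.61 and 11.05 in EPF. Cranial arrays held Rhob at 10.53, 10.39 and 10.72 and Oral arrays at 10.96, 11.02 and 10.83. Rhob levels were 9.35, 8.55 and 8.36 in Dorsal and 8.99, 8.67 and 8.78 in Ventral. The head arrays were well above the trunk arrays, and Oral overlapped with ENF. Oral exceeded Dorsal by 2.18 ± 0.22 (limma adjusted p = 0.000115) and Ventral by 2.13 ± 0.22 (limma adjusted p = 0.000138). Arc, an SRF target best known from neurons, was dim, at 6.50 ± 0.17 in Cranial, 6.24 ± 0.08 in Oral, 5.22 ± 0.47 in Dorsal and 4.93 ± 0.07 in Ventral (SD, n = 3). Cranial exceeded Ventral in Arc by 1.57 ± 0.20 (limma adjusted p = 0.000537), and EPF and Dorsal did not differ beyond their spread (0.42 ± 0.45).

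The spread of the 39 genes among arrays of one population was widest in Dorsal. The median SD of the 39 genes was 0.64 in Dorsal against 0.28 over all genes, and 8 of the 39 had an SD above 1, as did 5.31% of all genes. In Ventral it was 0.25 against 0.14, with 3 genes above 1 (Nr4a2, Klf10 and Dusp4) and 1.10% of all genes. ENF gave 0.27 against 0.25, EPF 0.20 against 0.18, Cranial 0.16 against 0.10 and Oral 0.13 against 0.13, with 0 of the 39 above 1 in these 4 groups. Against genes above the median level, whose median SD was 0.40 in Dorsal, 0.16 in Ventral, 0.28 in ENF, 0.204 in EPF, 0.11 in Cranial and 0.15 in Oral, the 39 were more spread in Dorsal, Ventral and Cranial and slightly less in ENF, EPF and Oral. All 3 Dorsal arrays departed from the mean of the other Dorsal arrays by more than 1 in many of the 39 genes, Dorsal 1 in 11 (15.9% of all genes), Dorsal 2 in 11 (3.55%) and Dorsal 3 in 14 (9.53%). Over all genes Dorsal 1 was the farthest, with a median absolute difference of 0.37 from Dorsal 2 and 0.415 from Dorsal 3 against 0.204 between those. Dorsal 1 was lower in 7 of its 11 genes, led by Nr4a2 (-2.60), Nr4a1 (-2.53), Nr4a3 (-2.45) and Junb (-2.23), and higher in 4, led by Dusp6 (2.49). Dorsal 3 was more than 1 above the mean of Dorsal 1 and Dorsal 2 in 10 genes, led by Egr3 (4.87), Nr4a3 (4.37), Klf10 (2.95), Nr4a2 (2.94) and Nr4a1 (2.22), and more than 1 below in 4, led by Dusp6 (-2.58) and Fos (-1.40). Ventral 1 was more than 1 above the mean of Ventral 2 and Ventral 3 in 5 genes, Nr4a2 (2.17), Klf10 (1.87), Dusp4 (1.77), Nr4a3 (1.55) and Ier5 (1.13), and more than 1 below in Dusp6 (-1.46) and Fos (-1.21). Over all genes 3.6% departed by more than 1 in Ventral 1. Mki67, a proliferation marker, was at 11.94, 11.18 and 9.25 in the Dorsal arrays, lowest in Dorsal 3. It was at 11.12, 11.04 and 11.03 in the Ventral arrays, which did not part in it. Some cell type markers did part them. The fibroblast marker Lum was at 5.65, 9.55 and 9.62 in Ventral and 8.82, 8.68 and 12.02 in Dorsal. The smooth muscle marker Cnn1 was at 10.33, 7.67 and 7.33 in Ventral. Whether cell cycle, cell types or handling plays a part in the spread was not tested. In Cranial, where Cranial 1 and Cranial 2 correlated at r = 0.998 over all genes, Cranial 3 was the highest array in 33 of the 39 genes, against 46.2% of all genes.

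**Figure D5:**
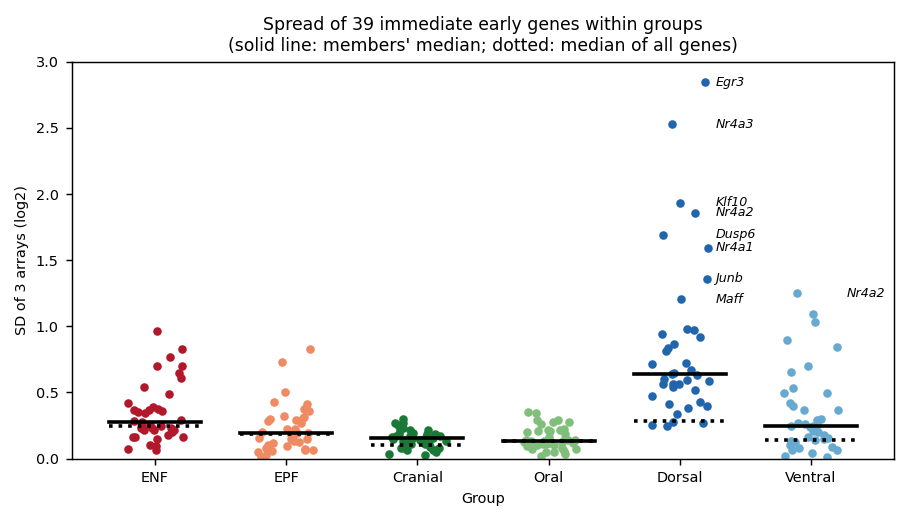
SD of the 3 arrays of each population (log2 units) for each of 39 immediate early genes (points, jittered sideways), with the median of the 39 (solid line) and of all 18193 genes (dotted line); genes with an SD above 1.2 are named. The Dorsal median of 0.64 lies above the 0.28 of all genes, and Egr3 and Nr4a3 are the widest.

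Other genes of the response were read from 4 fixed lists. Of 28 delayed early and growth response genes, 13 were higher and 4 lower in EPF than in Dorsal, against 10.9% and 5.94% of all genes. Il6, an inflammatory cytokine, rose by 5.08 ± 0.62, Ptgs2, the inducible cyclooxygenase, by 4.60 ± 0.41 and Tnfaip3, an NF-kB inhibitor, by 4.14 ± 0.29. Thbs1, a matrix protein that activates TGF-beta, fell with a difference of -3.04 ± 0.33, as did the EGF receptor ligands Hbegf (-2.90 ± 0.35) and Ereg (-2.30 ± 0.45). The calls in this paragraph had limma adjusted p of 0.0009 for Ptgs2, 0.0028 for Il6 and Hbegf, 0.000378 for Tnfaip3, 0.0021 for Thbs1 and 0.0163 for Ereg. Cell cycle genes fell in 6 of 7 members in the same comparison, with Mki67 at -5.21 ± 0.82.

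Among the sites, 7 of the 28 were higher and 2 lower in Cranial than in Dorsal, beside 11.2% and 7.45% of all genes, and the same counts held against Ventral, beside 11.7% and 6.2%. Oral gave 4 higher and 6 lower against Dorsal, beside 10.5% and 6.3% of all genes, and 5 and 5 against Ventral, beside 10.3% and 4.31%. Ptgs2 was at 11.54, 11.45 and 11.63 in Cranial and 10.69, 11.60 and 11.49 in Oral. In Dorsal it was at 7.67, 6.35 and 6.34 and in Ventral at 9.01, 5.48 and 5.24, with Ventral 1 above the other trunk arrays. Its rise was 4.97 ± 0.81 in Cranial over Ventral (limma adjusted p = 0.0023) and 4.48 ± 0.81 in Oral over Dorsal (limma adjusted p = 0.0039). Socs3, an inhibitor of cytokine signalling, was lower in Cranial than in Ventral (-2.35 ± 0.40, limma adjusted p = 0.0028), and the chemokine Cxcl1 was lower in Oral than in Dorsal (-2.30 ± 0.30, limma adjusted p = 0.000545). Between Oral and Cranial, 0 of the 28 were higher and 3 lower in Oral, beside 0.407% and 0.731% of all genes. The 3 were the chemokines Cxcl1 (-1.84 ± 0.30), Ccl7 (-1.61 ± 0.21) and Ccl2 (-1.57 ± 0.31).

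Of 17 genes for upstream kinases, SRF and CREB factors, 2 were higher and 1 lower in EPF than in Dorsal: Egfr (2.70 ± 0.44), Mrtfb, an SRF coactivator (1.36 ± 0.24), and Srf itself (-1.44 ± 0.33). These counts are near the shares of all genes (10.9% and 5.94%). Among the sites 1 to 4 of the 17 were higher in the head groups and 0 lower. Over all genes the shares were 10.3% to 11.7% higher and 4.31% to 7.45% lower. The kinase Braf was called in all 4 comparisons, from 0.98 ± 0.12 to 1.45 ± 0.12. Of 9 feedback inhibitors of RAS and ERK, 2 to 3 were higher and 0 to 1 lower in the head against trunk comparisons, beside the same shares. Spry2 was higher in all 4 head against trunk comparisons, at 2.18 ± 0.24 in Cranial over Ventral (limma adjusted p = 0.000269), and Spry4 by 0.94 ± 0.22 in Cranial over Dorsal (limma adjusted p = 0.0159). In EPF over Dorsal 1 of the 9 was called, Spry2 at 1.998 ± 0.22, beside 10.9% of all genes higher and 5.94% lower.

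Of 10 heat shock response genes, 6 were higher and 0 lower in EPF than in Dorsal, beside 10.9% and 5.94% of all genes. Hspa1a, the inducible Hsp70, was at 13.67, 13.49 and 13.35 in EPF and 13.83, 13.67 and 13.72 in ENF. In Dorsal it was at 7.58, 6.99 and 8.76, with no overlap. It rose in EPF over Dorsal by 5.72 ± 0.43 (limma adjusted p = 0.000523), the small heat shock protein Hspb1 by 4.22 ± 0.34 (limma adjusted p = 0.000676) and Hspa1b by 3.44 ± 0.58 (limma adjusted p = 0.0098). In the head against trunk comparisons 0 of the 10 were higher, beside 10.3% to 11.7% of all genes. Hspa8, the constitutive Hsc70, was lower in Cranial (-0.49 ± 0.13) and Oral (-0.46 ± 0.13) than in Dorsal, beside 7.45% and 6.3% of all genes. None of the 4 lists had a called gene between EPF and ENF or between Ventral and Dorsal.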

How the data were processed

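Sorted mouse fibroblasts were read on 18 arrays, 6 groups of 3 named by sample title. The authors deposited 1 log2 value per probe set and array, made by RMA and quantile normalization, per the submitters' processing notes and the design text. The sources used here name no versions and do not say whether all arrays were normalized together. RMA probe sets lie mostly near the 3′ end, so RNA quality can change a level.

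Of 45101 probe sets, 34945 carried 1 gene symbol in the platform annotation, 932 several and 9160 none, and 64 were controls. Each of 18193 genes was represented by its brightest single-symbol probe set, and dim probe sets were kept. The 39 genes and the other lists were chosen with earlier results of these data known, so a pattern in them is a description. Of the 30, 23, 9 and 10 genes of the 4 pathway lists, 28, 17, 9 and 10 had such a probe set, and the others were not used here.

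R 4.3.3 ran limma 3.58.1 (eBayes after lmFit), p-values were adjusted by Benjamini-Hochberg across all genes, and differences were called at an adjusted p under 0.05. EPF and ENF (6 arrays), the 4 sites (12 arrays) and EPF and Dorsal (6 arrays) were fitted separately. The procedure was tested on simulated data. Group values are given as mean ± SD and differences as estimate ± SE on the log2 scale, and the number of arrays limits the precision. Tables and plots were made in Python 3.11.15 (numpy 2.4.6, pandas 2.3.3, matplotlib 3.10.9). Alternatives were quantile normalization, the mean of a gene's probe sets, a filter on dim genes, array weights, an intensity trend, other sets of arrays in the fit, a replicate block and leaving out each array.

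Every gene of the list was named. Array values were given for Fos, Fosb, Jun, Junb, Egr1, Nr4a1, Atf3 and Dusp1, for up to 6 called genes per direction and comparison, and, where none was called, for the 2 genes with the largest difference. Of each pathway list up to 3 called genes per direction were named. Values of other genes were added after they were seen. Replicate numbers did not pair the samples: for no pair of groups did all 3 same-numbered arrays deviate together with a correlation above 0.1, and nothing in the labels links them.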

Additional observations from a re-analysis of the deposited data

How the results depend on the processing

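No called difference of an immediate early gene changed sign in the 1374 gene, comparison and alternative combinations that were run; 1221 kept their call and 153 lost it. Calls held under every alternative for 18 of 25 genes in EPF against Dorsal, 15 of 21 in Cranial against Ventral, 12 of 16 in Oral against Ventral, 11 of 21 in Cranial against Dorsal and 9 of 16 in Oral against Dorsal. Array weights moved the count of called genes to 7 for Oral against Cranial and 7 for Ventral against Dorsal. The counts moved to 34 for Cranial against Dorsal, 30 for Oral against Dorsal and 33 for Oral against Ventral. They moved to 33 for Cranial against Ventral and 37 for any difference among the sites. Over all genes the weighted fits called 1926, 952, 10113, 8963, 7724, 8854 and 11606 in this order. Without weights 207, 5, 3393, 3065, 2665, 3251 and 3836 of all genes were called. The cause was not tested. Fits on only the 6 arrays of both groups gave 15, 11, 9, 29 and 32 for Oral against Cranial, Cranial against Dorsal, Oral against Dorsal, Oral against Ventral and Cranial against Ventral. In the same order they called 1795, 1242, 1065, 4925 and 6684 of all genes. These fits leave out the other groups' estimate of spread. The single call between EPF and ENF, Nr4a3, was lost with all 18 arrays in the fit, where 1 other gene was called, and the count went to 0 with the mean of a gene's probe sets and to 0 with the replicate block, which moved no other count by over 1.5 times (23 in place of 25 for EPF against Dorsal). With the replicate block the calls of Fosl1 and Ier5 in EPF against Dorsal and of Fosb and Egr1 in Oral against Ventral were also lost. Under quantile normalization the median SD within Cranial was 0.0745 in place of 0.158. Leaving out 1 array gave 0 to 2 calls for EPF against ENF, 0 to 0 for Oral against Cranial, 0 to 5 for Ventral against Dorsal, 15 to 24 for Cranial against Dorsal, 11 to 20 for Oral against Dorsal, 13 to 16 for Oral against Ventral, 15 to 17 for Cranial against Ventral, 18 to 29 for EPF against Dorsal and 17 to 28 for any difference among the sites. Over all genes these fits called 4 to 130 for EPF against ENF and 111 to 129 for Oral against Cranial. For Ventral against Dorsal the range was 3 to 161. The head against trunk ranges were 1645 to 6148, 1770 to 5623, 1420 to 2270 and 1641 to 2350 in the order above. For EPF against Dorsal the range was 1474 to 4061, and for any difference among the sites 2513 to 7012. Signal near background limits Egr3 in Ventral, and signal near the top of the range limits Fos, Egr1, Dusp1, Zfp36, Cebpd, Klf4 and Jun in ENF or EPF.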
